A study of Saccharomyces cerevisiae with 219 samples.

Results

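The genes described here encode the machinery that shortens, decaps and degrades mRNA in the cytoplasm of Saccharomyces cerevisiae, with the factors that gather in processing bodies (P-bodies). They were chosen by name: 48 genes for decapping factors (8), the 5'-3' exonuclease (1), the Lsm proteins (7), nonsense-mediated decay (3), the CCR4-NOT complex (8), the PAN nuclease (2), RNA-binding regulators (4), the exosome (11) and the Ski proteins (4). Of these 48, 47 had a probe on both array designs, among 5710 genes in all. NGR1 was matched to no probe and has no value here. In cytoplasmic decay the poly(A) tail of an mRNA is first shortened by the PAN and CCR4-NOT nucleases. The cap is then removed by Dcp1-Dcp2 with the help of Dhh1, Pat1, the Lsm1-7 ring and the Edc proteins, and Xrn1 degrades the body from the 5' end, or the exosome degrades it from the 3' end with the Ski proteins. In stationary yeast, decapping factors collect with untranslated mRNA in P-bodies.

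RNA of yeast was hybridized on 219 spotted arrays against a common reference, a 1:1 mix of RNA from stationary and exponential cultures. All values below are log2 ratios to that reference with each array centred on its median, so that 0 is the typical gene of the array; they are levels of a gene relative to the reference and do not rank genes against each other. The cells of the time courses were haploid S288c grown 7 days in rich medium (YPD+A) to stationary phase. The hours course has 2 arrays at each time from 0.5 to 8 h and 6 arrays of T0 cells (38 arrays), and the minutes course 2 arrays for every minute up to 35 and for 60 min, beside 6 at T0 (78). The seconds course has 19 arrays from 10 to 300 s after 50 µM menadione, a redox-cycling quinone that causes oxidative stress, with 6 arrays at 0 s (25). A further course of 32 arrays from 30 to 480 min has no T0 arrays of its own. The labels of these courses other than the seconds course do not name the treatment, which the study gives as menadione for the hours and minutes courses and as a temperature upshift for the further one. Strains with the temperature-sensitive RNA polymerase II allele rpb1-1 (MATa ura3-52 rpb1-1), S288c and the RPB1 parental of the mutant (MATα ura3-52) were all held at the temperature non-permissive for rpb1-1 before T0 and sampled 2 and 30 min after menadione per the study (12 arrays). Per the study, cultures of these strains were grown for longer and at a lower temperature than those of the time courses. Cell-free lysates of stationary or exponential cells were incubated with 1 of 3 proteases or with buffer (28 arrays). Of these, 4 arrays of the trypsin experiment are labelled 2 min and enter the fit of the spread only and no group mean. Their cells were exposed to menadione for that time before lysis per the methods. Stationary RNA was isolated with proteinase K added, with hot phenol, or by the laboratory's own method (6 arrays).

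The sets are not independent of each other. The 2 S288c arrays at 0 min of the strain set match 0 s arrays 4 and 5 of the seconds course (r of 0.999 across genes for each), and its arrays at 2 and 30 min are identical to 1 array each of the minutes course. The study gives different growth and temperature for the strain set and the time courses. Which of these hold for the shared S288c arrays is not known here. The 2 upshift arrays at 30 min match 2 lysate arrays labelled stationary, trypsin, 2 min (r of 0.991 and 0.994). Each of the 6 T0 arrays of the minutes course correlates with 1 T0 array of the hours course at 0.977 to 0.981. An array held values for 742 to 5489 genes (median 4552); the lowest is the second rpb1-1 array at 0 min. As a check of the conditions, all 7 menadione-response genes tested (such as GRE2) rose in the hours course at 0.5 to 2 h and all 8 heat genes tested rose in the upshift at 30 to 120 min. In the minutes course at 1 to 10 min none of 7 menadione-response genes rose and 3 fell, and at 60 min GRE2 averaged 0.61 against 2.14 at T0. The treated and T0 arrays of that course are of different array designs, so this check cannot tell the condition from the design. The values of the minutes course are therefore given by the times on the labels. In stationary lysates 5 of 6 stationary-phase genes tested were higher than in exponential lysates. Members had a value on a median of 190 of the 219 arrays (all genes, 184), with XRN1 on 217 and PUF3 on 54.

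A gene was tested where at least 80% of the arrays had a value, with limma across all such genes, and counts as called where the p-value, adjusted after Benjamini and Hochberg over those genes, was under 0.05 with a change of 2-fold or more. Separate cultures are not stated for most arrays, so the p-values measure the spread between these arrays. The share of members called was below the share of all genes in most comparisons. In the hours course at 0.5 to 2 h against T0, 4 of 34 members tested rose and 1 fell, where 12.9% of all genes tested rose and 10.2% fell. At 5 to 8 h 5 of 34 rose and 0 fell, against 10.4% and 15.5% of all genes. Between 5 to 8 h and 0.5 to 2 h no member of 34 was called (11 at an unadjusted p under 0.05), against 5.83% of all genes higher, 14% lower and 19.8% in either direction. In the upshift at 30 to 120 min 1 of 30 members rose and 0 fell (all genes, 6%, 2.83% and 8.84% in either direction), and at 300 to 480 min 0 rose and 2 fell (9.2% and 8.34%). Later against earlier upshift arrays gave 0 of 30 members (6 at an unadjusted p under 0.05; all genes, 2.26% higher, 2.59% lower and 4.85% in either direction). Set against the upshift directly, the hours course gave 5 members higher and 1 lower of 30 at the early times (19.6% and 18.5% of all genes), and 4 higher and 1 lower of 30 at the late times (13.1% and 23.1%, or 36.3% in either direction).

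The other sets gave shares on either side of the background. In the minutes course at 1 to 10 min 9 of 37 members rose and 6 fell, with 20.9% and 16.5% of all genes. At 26 to 35 min against 1 to 10 min 0 of 40 were called (5 at an unadjusted p under 0.05), with 0.103% of all genes. The seconds course gave 0 of 42 at 10 to 60 s (6 at an unadjusted p under 0.05; all genes, 0.0905% higher, 0.0905% lower and 0.181% in either direction) and 1 of 42, higher, at 120 to 300 s (1.11% of all genes higher and 2.35% in either direction). In the strain set only 9 members could be tested: 5 rose and 1 fell after menadione (23.7% and 18.7% of all genes), 0 were called between rpb1-1 and parental (3 at an unadjusted p under 0.05; all genes, 33.6%), and the response to menadione was called different between them for 0 of 2 members tested (0 at an unadjusted p under 0.05; all genes, 35.1%). In buffer-treated lysates 1 of 18 was higher and 3 lower in stationary than in exponential cells (19% and 17.9% of all genes). Protease against buffer gave 0 of 18 members in stationary lysates (1 at an unadjusted p under 0.05) and 0 of 17 in exponential lysates (0 at an unadjusted p under 0.05), and 0% of all genes in both. Hot phenol against the own isolation gave 1 member higher and 1 lower of 42 (8% and 5.57% of all genes), and proteinase K 6 higher and 2 lower of 41 (11.1% and 15.8%). Over all 21 comparisons 31 members were called at least once and 16 never. The share of all genes called at least once is not given here, so these counts do not set the members apart.

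**Figure D1:**
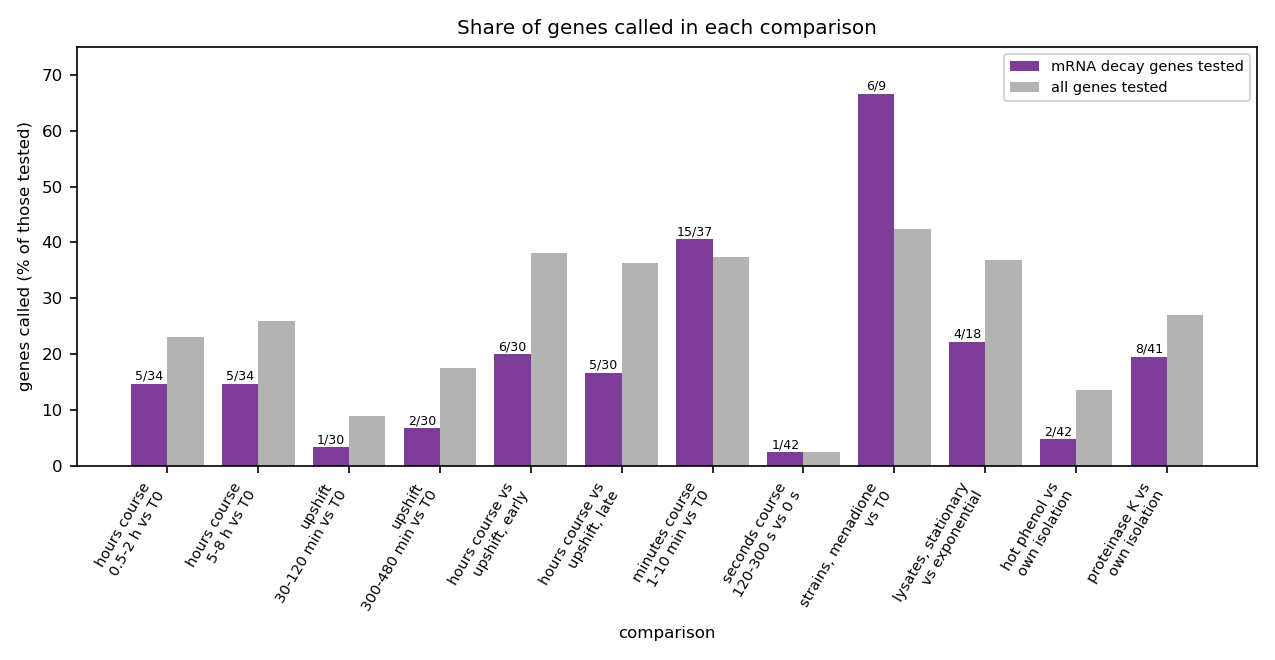
Bars give the share of genes called (% of those tested) in 12 comparisons, purple for the mRNA decay genes with the number called over the number tested, and grey for all genes. The purple bar is the higher one for the minutes course (15/37) and the strain set (6/9), and barely so for the seconds course (1/42).

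On the centred scale the median difference of the members was 0.13 at 0.5 to 2 h of the hours course, where that of all 3756 genes was 0.05, and 0.18 at 5 to 8 h, where that of all genes was of the other sign, at -0.18. At 0.5 to 2 h 29 of the 34 members tested differed from T0 by under 2-fold (85.3%, against 72.6% of all genes). The scale matters here. Before centring, the array medians at 0.5 to 2 h ran from -0.06 to 1.97 (median 0.99), against -1.53 to 0.61 (median 0.085) at T0, and the members' median difference on the deposited scale was 1.22 at 0.5 to 2 h and 1.41 at 5 to 8 h. In the seconds course the array medians at 120 to 300 s ran from 1.94 to 2.40, against 0.00 to 1.36 at 0 s, and on the deposited scale 38 of 42 members were called there, all higher. The share of all genes called on that scale is not given here, so this count is not a result about the members. RNA came from whole cultures, so fewer cells with a transcript and less of it per cell cannot be told apart. Each change below is relative to the median gene of the array, and a gene that fell on this scale may not have fallen on the deposited one.

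**Figure D2:**
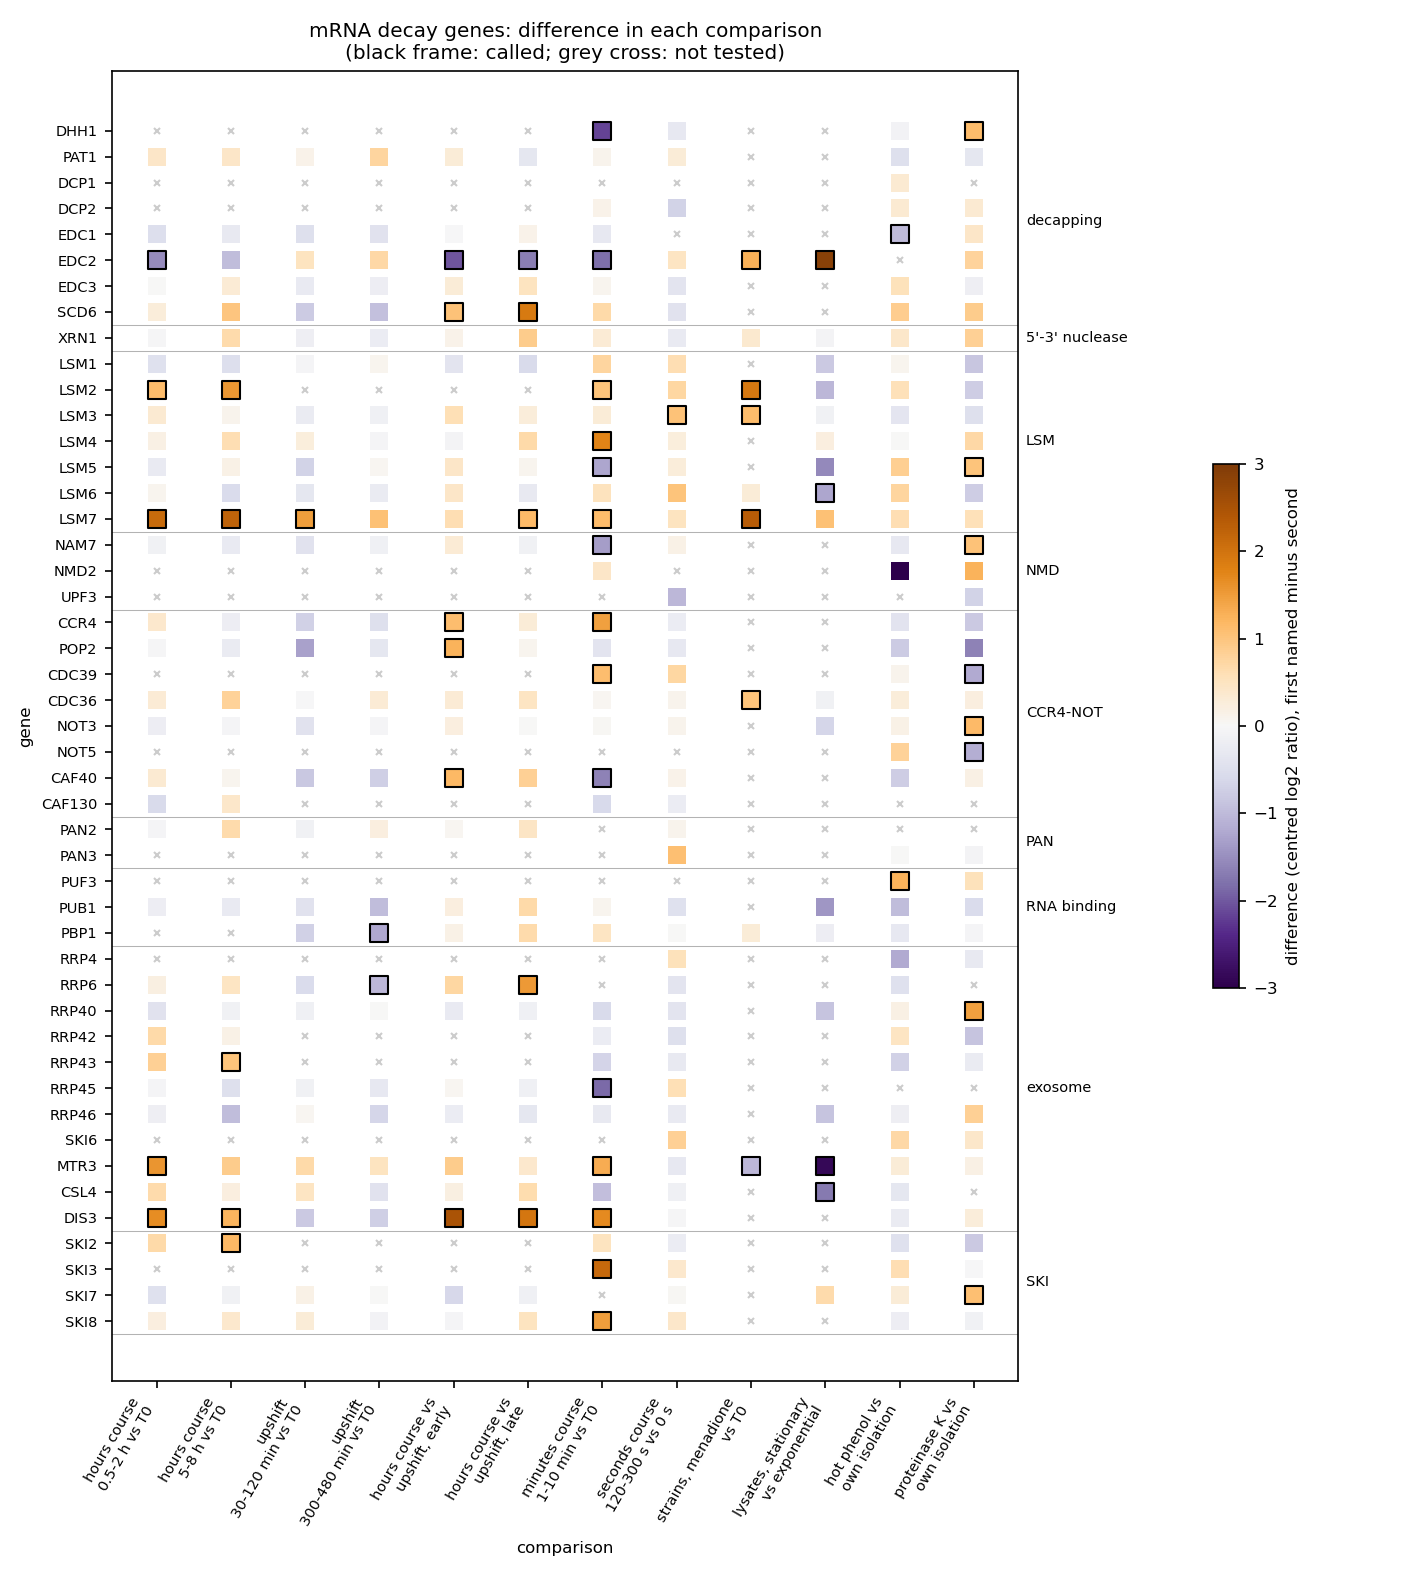
Rows are the 47 measured genes by role and columns 12 comparisons; colour gives the difference in centred log2 ratio of the first-named group minus the second (orange higher, purple lower; the scale ends at 3 and -3), a black frame a call and a grey cross a gene not tested. Frames gather in EDC2, LSM2, LSM7, MTR3, DIS3 and the minutes course, while PAT1, EDC3 and PUB1 have none.

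Among the decapping factors, EDC2, which encodes an activator of the decapping enzyme, fell in the hours course and was lower there than in the upshift. At 0.5 to 2 h of the hours course its level was 1.19 at the lowest, 1.64 at the median and 2.29 at the highest, against 2.75, 3.02 and 4.41 at T0. All 8 arrays lay below all 6 T0 arrays. The difference was -1.52 ± 0.29 (SE; limma, adjusted p = 0.000225), or 0.35 of the T0 level, and the call held without any 1 T0 array or either run, though on the deposited scale the difference was -0.46 (adjusted p = 0.299). At 5 to 8 h EDC2 ran from 1.45 to 3.46 (median 2.18, 14 arrays), which is -0.96 ± 0.26 from T0 and short of 2-fold. In the upshift EDC2 was 3.26, 3.74 and 4.37 at 30 to 120 min and 3.47, 3.91 and 4.67 at 300 to 480 min. The hours course was thus lower than the upshift by 2.03 ± 0.24 on the log2 scale at the early times (adjusted p = 1.62e-09) and by 1.68 ± 0.18 at the late times (8.19e-11), and neither pair of ranges meets, with the array at 7.5 h of run 2 (3.46) just under the lowest late upshift value. On the deposited scale the late difference was -0.67 (adjusted p = 0.018) and under 2-fold. The 2 courses were hybridized as separate sets, and T0 in any upshift difference is that of the hours course, so that treatment and set cannot be told apart in either.

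SCD6, an Lsm-domain protein that represses translation and binds decapping factors, separated the same 2 courses in the other direction. At 5 to 8 h of the hours course it ran from -0.07 to 1.10 (median 0.53), against -2.24 to -1.01 (median -1.30) in the upshift at 300 to 480 min. The ranges do not meet, and the difference was 1.91 ± 0.17 (adjusted p = 1.03e-11); at the early times it was 1.05 ± 0.21 (7.07e-05). Neither call was lost without a run, though 1 of the 4 such fits could not test the late one. T0 arrays, with 4 values from -0.75 to -0.26, lay between the 2 courses. Against T0 neither course passed the fold threshold, with 1.00 ± 0.22 in the hours course at 5 to 8 h, just under 2-fold before rounding, and -0.92 ± 0.25 in the upshift at 300 to 480 min.

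**Figure D3:**
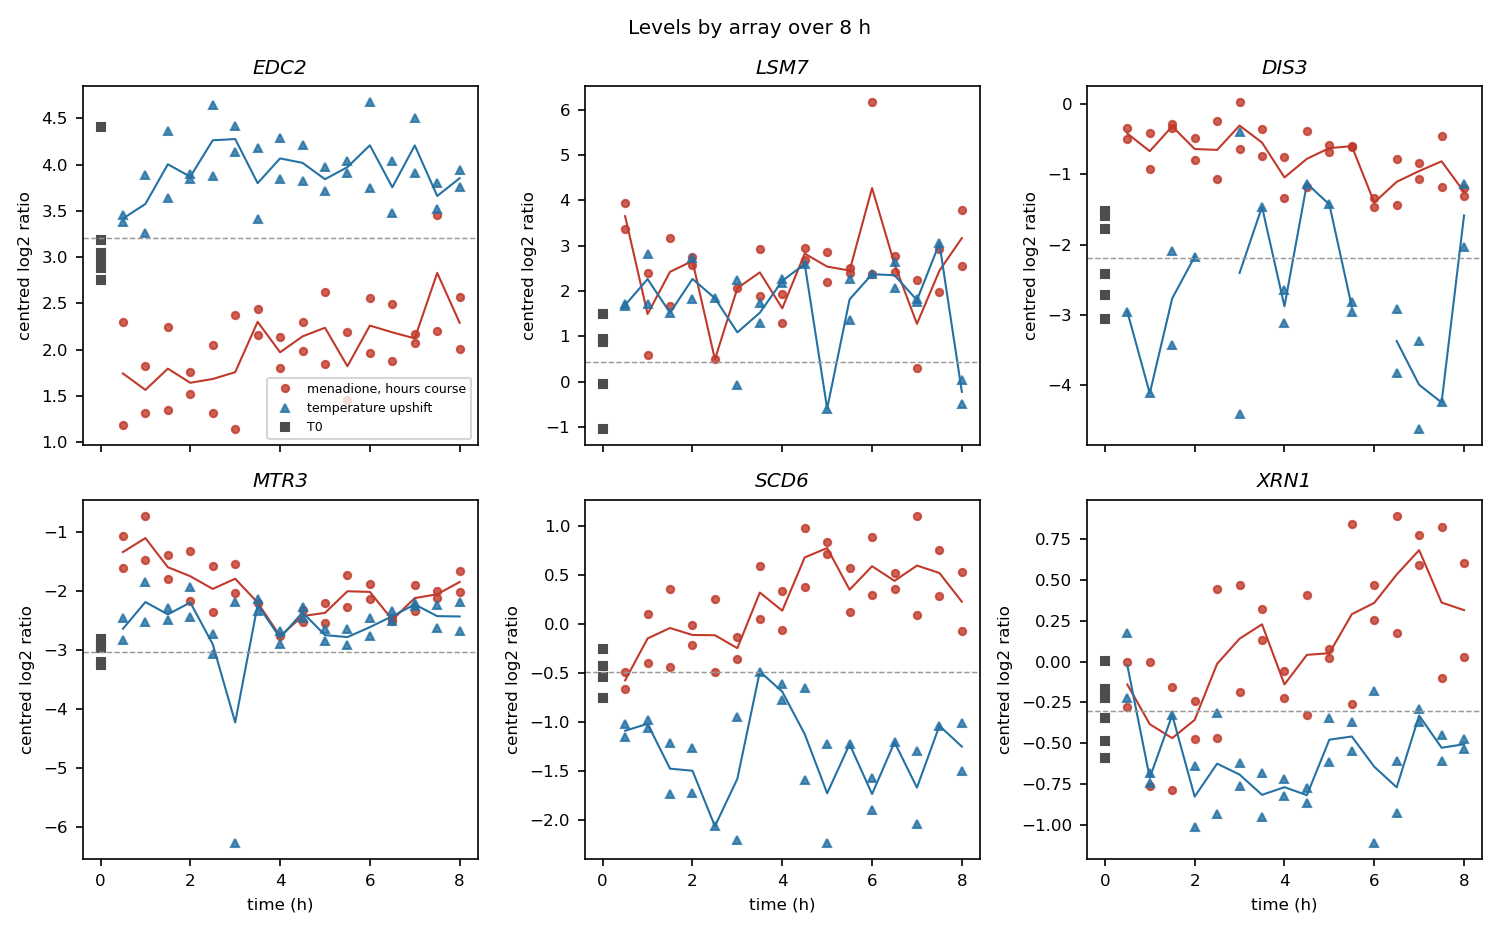
Level by array (centred log2 ratio) against time (h) of EDC2, LSM7, DIS3, MTR3, SCD6 and XRN1, with red circles for the hours course (menadione per the study), blue triangles for the upshift, dark squares for the 6 T0 arrays at 0 h, lines for the mean at each time and a dashed line for the T0 mean. EDC2 lies below T0 in the hours course and SCD6 and DIS3 lie below the hours course in the upshift.

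The core of the decapping machinery could be tested in part only. PAT1, the scaffold that joins Dhh1, the Lsm ring and the decapping enzyme, had a value on 206 arrays and was called in none of 14 comparisons on the centred scale. Its level ran from -0.86 to 0.47 (median -0.10) at 0.5 to 2 h of the hours course, against -1.53 to 0.28 (median -0.64) at T0. On the deposited scale PAT1 was called higher than T0 at 0.5 to 2 h (1.49) and at 5 to 8 h (1.57). DHH1, the DEAD-box helicase that represses translation and promotes decapping, had values on 20 of 38 arrays of the hours course and was not tested there. The 4 values at 0.5 to 2 h ran from -2.56 to 0.13, against 4 values from -0.05 to 1.65 at T0, and the 8 upshift values at 30 to 120 min from 0.04 to 1.28. DCP2, the catalytic subunit of the decapping enzyme, was not tested in this course either: 11 values at 5 to 8 h ran from 1.14 to 2.46, all above the 4 T0 values of -0.46 to 0.53. DCP1, the activating subunit, ran from 0.46 to 1.59 in 10 arrays at 5 to 8 h, within reach of 0.52 to 1.66 in 6 at T0. In the upshift at 300 to 480 min its 7 values ran from -0.82 to 0.06, all below those at T0, and it was not tested. EDC3, a P-body scaffold, and EDC1, a paralogue of EDC2, were tested and not called in either course.

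XRN1, which encodes the 5'-3' exonuclease, passed the fold threshold in no comparison of these courses on the centred scale. Its level was -0.79, -0.26 and 0.00 (lowest, median, highest) at 0.5 to 2 h, and -0.26, 0.36 and 0.89 at 5 to 8 h, against -0.59, -0.29 and 0.00 at T0. The late difference from T0 was 0.67 ± 0.20 (adjusted p = 0.0097), or 1.6-fold, and against the late upshift arrays, at -1.11, -0.51 and -0.18, it was 0.90 ± 0.14 (3.65e-07). Neither reached 2-fold, so neither is counted among the calls. On the centred scale XRN1 was called in none of 20 comparisons. On the deposited scale its differences from T0 were 1.03 at 0.5 to 2 h and 1.82 at 5 to 8 h. Against the late upshift arrays it was 1.91 there, and each of these was called. In stationary against exponential buffer lysates XRN1 was called lower on that scale (-2.44).

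The 7 Lsm proteins form the ring that binds the 3' end of shortened mRNAs, and Lsm2 to Lsm7 also sit in the nuclear ring that binds U6 RNA. Their genes did not move as a unit. LSM7 was 0.59, 2.66 and 3.94 (lowest, median, highest) at 0.5 to 2 h, against 5 values of -1.05, -0.06, 0.88, 0.95 and 1.49 at T0. All but 1 of the 8 arrays lay above the T0 values. The rise was 2.11 ± 0.54 (adjusted p = 0.00419) or 4.33-fold, and it was 2.23 ± 0.49 (0.00089) at 5 to 8 h; both calls held without any 1 T0 array or either run. LSM2 was 0.24, 0.83 and 1.61 at 0.5 to 2 h, against -1.08, -0.61, -0.47, 0.47 and 0.48 at T0, a rise of 1.13 ± 0.37 (0.0221) that was lost without T0 array 3, 4 or 5 or run 2 (lowest difference 0.84) and with the replicate block, which takes the arrays of a run together (adjusted p = 0.0762). At 5 to 8 h the rise of LSM2 was 1.56 ± 0.34 (0.000798) and held without each. The other 5 members of the ring were not called in the hours course.

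LSM1, the subunit found only in the cytoplasmic ring, ran from -2.63 to -0.38 (median -1.29) at 0.5 to 2 h, against -2.25 to -0.25 (median -0.69) at T0, and the difference of -0.45 ± 0.52 lay within its error. In the upshift LSM7 was 1.52, 1.71 and 2.82 at 30 to 120 min, a rise of 1.49 ± 0.51 from T0 of the hours course (adjusted p = 0.0441). That call was lost without the 30 min arrays that match lysate arrays (difference 1.57, adjusted p = 0.0578) and without T0 array 1, 2 or 4 or upshift run 1 (lowest difference 1.12), and with the replicate block (1.55, adjusted p = 0.09) or centring on genes with a value on every array (1.28, 0.0568). LSM7 was higher in the hours course than in the upshift at the late times, by 1.17 ± 0.36 (0.00528), which was lost without hours run 1 (0.69) and with the replicate block (adjusted p = 0.113), and at the early times the difference of 0.62 ± 0.46 was within its error.

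Of the nonsense-mediated decay factors, NAM7, the helicase Upf1, was the only one tested in the hours course and upshift and was called in neither. NMD2 and UPF3, its partners, had 3 values and 1 value at T0 and were not tested. In the CCR4-NOT complex, which holds the main deadenylases of yeast, none of the members tested was called against T0 in either course. CCR4, the catalytic deadenylase, was -0.97, -0.17 and -0.01 at 0.5 to 2 h, against -2.42, -1.04 and -0.83 in the upshift at 30 to 120 min, and the hours course was higher by 1.12 ± 0.25 (adjusted p = 0.000368; 0.96 and under 2-fold without upshift run 1). POP2, the second deadenylase of the complex, and CAF40, a conserved subunit, were higher in the hours course as well, by 1.26 ± 0.48 (0.0247) and 1.19 ± 0.40 (0.0109). Both calls were lost when single runs were left out, with lowest differences of 0.89 and 0.46, and that of POP2 with the replicate block (adjusted p = 0.069). CDC39, the scaffold of the complex (Not1), was not tested, and its 11 values at 5 to 8 h (1.73 to 2.62) all lay above the 4 at T0 (0.43 to 1.24).

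The PAN nuclease, which trims long tails first, was covered by PAN2 alone, not called and at 0.66 ± 0.24 at 5 to 8 h. Of the RNA-binding regulators, PBP1, which binds the poly(A)-binding protein and is found in stress granules, fell in the upshift against T0 of the hours course. It was -3.58, -2.27 and -0.88 at 300 to 480 min in 11 of 14 arrays, against -1.15 to -0.85 in 5 T0 arrays. The fall was 1.22 ± 0.26 on the log2 scale (adjusted p = 0.00047), with 1 upshift value inside the T0 range, and on the deposited scale the same difference missed the threshold (0.0725). PUB1, a U-rich-binding protein that stabilizes mRNAs, was not called in any comparison on the centred scale.

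The exosome is a ring of RNase PH-like subunits and cap proteins with the nuclease Dis3. DIS3 was -0.92, -0.45 and -0.29 at 0.5 to 2 h, against -3.06, -2.71, -2.42, -1.78, -1.59 and -1.52 at T0, and no array of the first group reached the second. The rise was 1.67 ± 0.24 (adjusted p = 7.24e-06) or 3.18-fold at 0.5 to 2 h and 1.22 ± 0.22 (6.54e-05) at 5 to 8 h, and it held without any 1 T0 array or either run. In the upshift DIS3 had 5 values of 8 at 30 to 120 min, from -4.11 to -2.10, and was not called against T0 (-0.82 ± 0.43). The hours course was higher than the upshift by 2.49 ± 0.41 (4.46e-06) and 1.95 ± 0.30 (8.46e-07) at the early and late times. Only 1 of the 4 fits that leave out a run had enough values to test it. DIS3 also rose in the minutes course (1.69), where the T0 arrays are of the other array design. The rise was not seen in the seconds course or the strain set, where all arrays are of the 143-array design. In the seconds course its difference at 120 to 300 s was -0.03. In the strain set it was not tested, and the parental ran from -0.59 to -0.48 after menadione, against 1.50 to 1.76 before.

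MTR3, a subunit of the exosome ring, was -2.17, -1.44 and -0.73 at 0.5 to 2 h, against -3.26, -3.20, -2.96, -2.96 and -2.81 in 5 T0 arrays. The ranges do not meet, and the rise was 1.59 ± 0.21 (adjusted p = 3.71e-06) or 3.01-fold. At 5 to 8 h it was 0.91 ± 0.19, below 2-fold. RRP43, another ring subunit, rose by 1.01 ± 0.36 at 5 to 8 h (0.0317), a call lost without T0 array 1, 3 or 6 or run 2 (lowest 0.86) and with the replicate block (adjusted p = 0.109). RRP6, the nuclear exosome nuclease, fell in the upshift at 300 to 480 min by 1.05 ± 0.28 from the same T0 arrays (0.00435). Its 9 values there were -1.64 to -0.41 (median -0.78), against -0.70 to 0.69 at T0, and without T0 array 3 or 5 the difference was under 2-fold (-0.93 and -0.98), as it was on the deposited scale (-0.80, adjusted p = 0.452). RRP6 was higher in the late hours course than in the late upshift by 1.53 ± 0.23 (6.94e-07), with ranges of -0.04 to 1.30 and -1.64 to -0.41 that do not meet. That call was not lost in the 3 of 4 fits without a run that could test it. RRP40, RRP45 and RRP46 were not called in these courses.

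The Ski proteins thread mRNA into the cytoplasmic exosome. SKI2, the helicase, was -0.09, 0.24 and 0.98 at 5 to 8 h, against 5 T0 values from -2.19 to 1.22. It rose by 1.17 ± 0.35 (adjusted p = 0.0102), a call lost without T0 array 5 (0.83), run 1 (0.97) or run 2 (1.38). SKI7 and SKI8 were tested and not called, and SKI3 had 3 T0 values and was not tested. Its T0 values ran from -1.02 to -0.35. All 5 values at 0.5 to 2 h (-0.01 to 1.10) and all 11 at 5 to 8 h (0.56 to 1.66) lay above them.

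In the minutes course the treated arrays are of the design with 143 arrays and the T0 arrays of the design with 76, so that time and design cannot be told apart in any difference from T0. Between 1 to 10 min and T0, 15 members were called, and 11 of these calls held without any 1 T0 array or either run. EDC2 was 0.39, 1.40 and 2.01 at 1 to 10 min, against 2.62, 2.98 and 4.06 at T0, a fall of 1.81 ± 0.20 on the log2 scale (adjusted p = 3.99e-10). MTR3 (1.32 ± 0.15, 4.89e-10) and DIS3 (1.69 ± 0.28, 1.42e-06) rose. LSM2 (1.01 ± 0.27) and LSM7 (1.14 ± 0.47) rose as well, each with a call lost without several single T0 arrays or a run (lowest 0.73 and 0.56). Both were also lost with centring on genes with a value on every array (0.57 and 0.76), which put MTR3 just under 2-fold (0.97), and LSM7 with the replicate block (adjusted p = 0.107). The hours course at 0.5 to 2 h, with T0 arrays that match those used here, gave differences of -1.52, 1.59, 1.67, 1.13 and 2.11 for EDC2, MTR3, DIS3, LSM2 and LSM7. The S288c arrays of the strain set after menadione are arrays of this course, and their 0 min arrays are of the same design. Against those 0 min arrays, given with the strain set below, EDC2 was higher and MTR3 lower, while LSM2 and LSM7 were higher as here. DIS3 ran from -0.68 to -0.62 on these S288c arrays, against 1 value of 0.98 at 0 min. S288c alone was not tested.

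The other genes called in the minutes course were not called, or not tested, in the hours course. DHH1 was -3.38, -1.50 and 4.10 at 1 to 10 min in 19 arrays, against -0.14, 0.10, 1.14, 1.35 and 1.59 at T0, a fall of 2.17 ± 0.49 (adjusted p = 0.000214). The highest value is that of 1 array at 1 min, and every other array was below all T0 values. At 60 min DHH1 averaged -1.81 on the 2 arrays here and -1.47 on the 2 arrays of the hours course at 1 h. RRP45, an exosome ring subunit, was -1.28, -0.60 and -0.11, against 0.23, 1.38 and 2.22 at T0, a fall of 1.87 ± 0.20 (1.81e-10), and at 60 min it averaged -0.21 here and 1.29 at 1 h of the hours course. LSM5 was -1.34, -1.04 and -0.37, against 0.16, 0.37 and 0.47, a fall of 1.26 ± 0.13 (5.01e-11), and averaged -0.47 at 60 min here and 0.46 at 1 h of the hours course. CAF40 fell by 1.62 ± 0.31 (2.44e-05) and averaged -1.64 at 60 min here and 0.17 at 1 h there, and NAM7 fell by 1.34 ± 0.35 (0.001). On the deposited scale LSM5 (-0.86) and NAM7 (-0.90) were under 2-fold. For RRP45, LSM5 and CAF40 the arrays of the hours course at 1 h were close to T0 while those of the minutes course at 60 min were not.

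The rises in the minutes course beyond those above were SKI3 (2.15 ± 0.46, adjusted p = 0.000121), LSM4 (1.77 ± 0.54, 0.00492), SKI8 (1.48 ± 0.46, 0.00596), CCR4 (1.47 ± 0.25, 3.23e-06) and CDC39 (1.12 ± 0.42, 0.0233). SKI3, the scaffold of the Ski complex, rests on 2 T0 values, -1.14 and -0.81. LSM4 averaged 2.03 at 60 min here and -1.12 at 1 h of the hours course, and CCR4 0.56 and -0.49. The call of LSM4 was lost without run 2 (0.80), and that of CDC39 without T0 array 2 or 5 (1.05 and 1.04, adjusted p of 0.052 and 0.0556), with the replicate block (0.103) or with centring on genes with a value on every array (0.79). Of the core genes not called, XRN1 was -0.34, -0.05 and 0.44 at 1 to 10 min, against -0.52, -0.27 and -0.21 at T0, LSM1 was -0.36, -0.10 and 0.62, against -2.57, -0.39 and 0.08, and PAT1 was -1.04, -0.50 and 0.24, against -1.26, -0.57 and 0.45. DCP2 was -0.72, 0.04 and 1.98 in 18 arrays, against -0.33 to 0.37 in 5 at T0. Within the treated arrays, which are of 1 design, no member was called between 26 to 35 min and 1 to 10 min, and LSM4 (1.01 ± 0.38, adjusted p = 0.14) and LSM7 (0.97 ± 0.30, 0.0723) had the largest differences. With the replicate block LSM4 was called there (1.08, adjusted p = 0.00993).

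**Figure D4:**
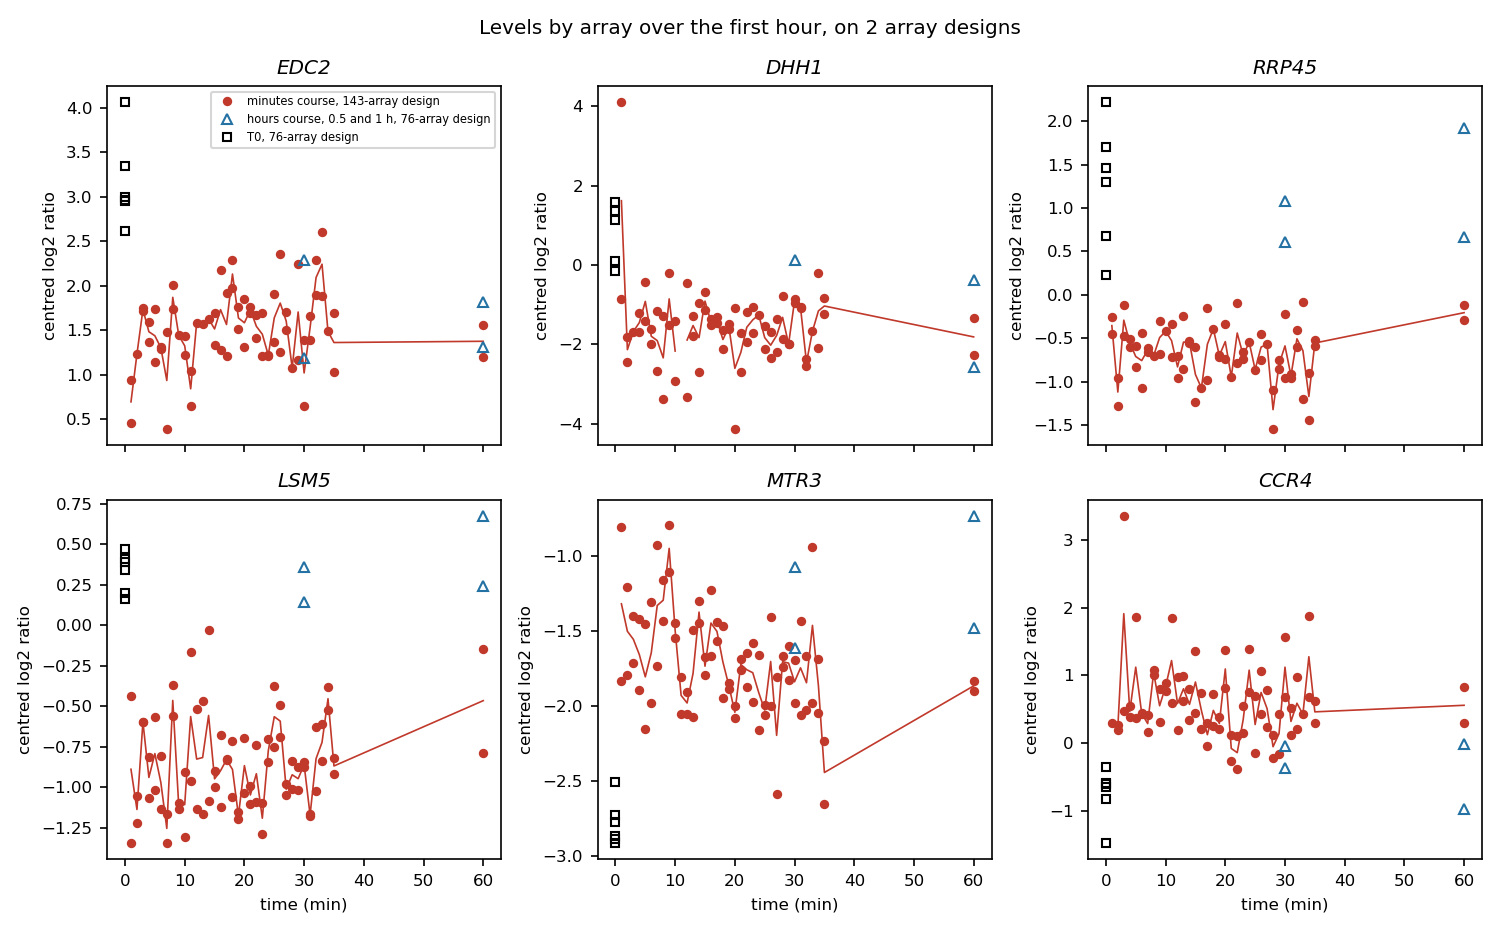
Level by array (centred log2 ratio) against time (min) of EDC2, DHH1, RRP45, LSM5, MTR3 and CCR4: filled red circles are the minutes course (143-array design) with a line through the mean at each time, open blue triangles the hours course at 0.5 and 1 h and open black squares at 0 the 6 T0 arrays, both on the 76-array design. The blue triangles of EDC2 lie among the red circles, and those of RRP45 and LSM5 lie near the T0 squares.

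The seconds course stays on 1 design and starts from 6 arrays at 0 s. Only LSM3 was called at 120 to 300 s, at 0.84, 1.18 and 1.77, against -0.79, 0.33 and 1.08 at 0 s. The rise of 1.04 ± 0.24 (adjusted p = 0.0218) was lost without the 0 s arrays 4 and 5 that match the strain set (0.86, 0.0707) and without each of 5 single arrays (lowest 0.84). LSM2, LSM6 and PAN3 had differences of 0.74 ± 0.19, 1.02 ± 0.34 and 1.09 ± 0.41 and were not called, LSM2 being short of 2-fold (adjusted p = 0.0265) and the others short of the threshold. EDC2 was 1.54, 1.90 and 2.56 at 120 to 300 s, against -0.50, 2.20 and 2.85 at 0 s, and MTR3 was -0.94, -0.64 and -0.30, against -0.62, -0.32 and -0.02. The fitted differences were 0.47 for EDC2 and -0.31 for MTR3, neither called. On the deposited scale they were 1.95 and 1.16, both called. The level of MTR3 at 0 s here and at T0 of the hours course thus differed by more than the change within either. These sets are of different array designs and were deposited as different kinds of ratio (log2 and linear), and the cause of the offset was not tested. DHH1 (-0.33 ± 0.45), PAT1 (0.30 ± 0.16), DCP2 (-0.70 ± 0.28), XRN1 (-0.26 ± 0.16) and LSM1 (0.62 ± 0.30) were not called. On the deposited scale the differences of DHH1 (1.15, adjusted p = 0.0397), DCP2 (0.77) and XRN1 (1.21, 5.46e-05) were of the other sign, and those of DHH1 and XRN1 were called. DCP1 had 6 of 8 values at 120 to 300 s, from -5.21 to -2.18, against 5 values from -2.59 to 0.44 at 0 s, and was not tested.

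In the strain set, with too few values for 39 members, LSM7 and LSM2 rose after menadione. LSM7 was 0.40 and 0.33 in rpb1-1, 2.88 and 1.79 in the parental and 1.12 and 1.69 in S288c at 2 and 30 min, against -1.26 (1 value) in rpb1-1, 0.06 and -1.51 in the parental and -1.38 and -0.47 in S288c at 0 min. All 6 arrays after menadione were above all 5 values before it, and the rise was 2.34 ± 0.37 (adjusted p = 0.000804). LSM2 was 0.90 and 1.05 in rpb1-1, 0.59 and -0.09 in the parental and 0.30 and 0.93 in S288c after menadione, against -2.90 in rpb1-1, -0.90 and -0.47 in the parental and -0.49 and -0.29 in S288c before, a rise of 1.94 ± 0.22 (0.000156). For LSM7 and LSM2 alike, 11 of the 12 fits without 1 array could test the rise, and the call was lost in none of these. EDC2 was 0.67 and 0.62 in rpb1-1, 1.31 and 1.55 in the parental and 1.23 and 0.65 in S288c after menadione, against -1.87 and 1.40 in rpb1-1, 0.32 and -0.45 in the parental and -0.61 and -0.37 in S288c before. The rise of 1.27 ± 0.48 (0.0437) was lost in 11 of 12 fits without 1 array, and without the S288c arrays that are shared with other sets (1.19, adjusted p = 0.209). The size hung on the rpb1-1 arrays at 0 min. It was 1.81 without the second of them, the array with the fewest genes, and 0.73 without the first. On the deposited scale the rise of EDC2 was 2.17 and called. CDC36, a subunit of CCR4-NOT (Not2), and LSM3 rose by 1.02 ± 0.35 (0.0328) and 1.13 ± 0.41 (0.0423), and LSM3 was lost without those arrays as well (adjusted p = 0.17). Both calls were also lost in most fits without 1 array. MTR3 fell by 1.05 ± 0.23 (0.00616), with -0.65 (1 value) in rpb1-1, -1.76 and -1.85 in the parental and -1.21 and -1.98 in S288c after menadione, against -0.92 (1 value), 0.59 and 0.30, and -0.28 and -0.60 in the same strains before, a call lost without 3 single arrays (difference -0.92 to -1.18) and on the deposited scale (-0.70, adjusted p = 0.244). Without the S288c arrays 3 members were called, LSM2, LSM7 and CDC36, all higher. XRN1 was lower in rpb1-1 than in the parental by 0.87 ± 0.20 (adjusted p = 0.0103), below 2-fold.

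In lysates left in buffer, EDC2 was higher and MTR3, CSL4 and LSM6 lower in stationary than in exponential cells. EDC2 was 0.64 and 1.38 in the Qiagen protease experiment, 1.40 and -1.50 in that of proteinase K and 4.24 and 3.57 in that of trypsin for stationary cells, against 0.65 and 0.74, -1.50 and -2.10, and -2.73 and -2.51 in the same experiments for exponential cells. The difference of 2.87 ± 0.76 (adjusted p = 0.0126) was thus large with trypsin and small with Qiagen protease, and on the deposited scale it was 0.51. MTR3 was -1.20 (1 value), -1.27 and 0.62, and -3.88 and -3.06 in stationary lysates, against 1.34 and -0.14, 0.94 and 0.86, and 2.11 and 2.11 in exponential lysates, lower by 2.87 ± 0.74 (0.0122). CSL4, a cap protein of the exosome, was lower by 1.73 ± 0.53 (0.0233), with 6 stationary values of -0.36 to 0.95 within the exponential range of -0.59 to 4.09. LSM6 was lower by 1.26 ± 0.40 (0.0224). All 4 calls were lost without the first stationary proteinase K buffer array (differences of 2.38, -2.55, -1.62 and -1.07 for EDC2, MTR3, CSL4 and LSM6). The members' median was -0.72 here, where that of all genes was 0.02, and -2.89 on the deposited scale.

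With protease, EDC2 in stationary lysates was 1.20 and 0.68 (Qiagen protease), -2.05 and -1.86 (proteinase K) and -0.05 and -0.55 (trypsin). It differed from buffer by -2.06 ± 0.76 (adjusted p = 0.203), the largest difference among the 18 members tested and not called. Without the 4 arrays labelled 2 min, which leaves the difference as it is, it was called (adjusted p = 0.0186), as it was with the replicate block (0.0427). XRN1 differed by -0.31 ± 0.34 in stationary and 0.24 ± 0.34 in exponential lysates, and LSM1 by 0.06 ± 0.54 and -0.41 ± 0.57. On the deposited scale the differences in stationary lysates were -0.41 for EDC2 (adjusted p = 0.621), 1.34 for XRN1 and 1.37 for LSM1, none called. CSL4 (2.475) and RRP40 (2.443) were called higher there (adjusted p = 0.0485 for each). In exponential lysates XRN1 differed by 0.045 and LSM1 by -0.57 on that scale. DHH1, PAT1, DCP1 and DCP2 had too few values to test in any lysate comparison. The protease response was called different between stationary and exponential lysates for 0 of 17 members (0 at an unadjusted p under 0.05, and 0% of all genes called).

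**Figure D5:**
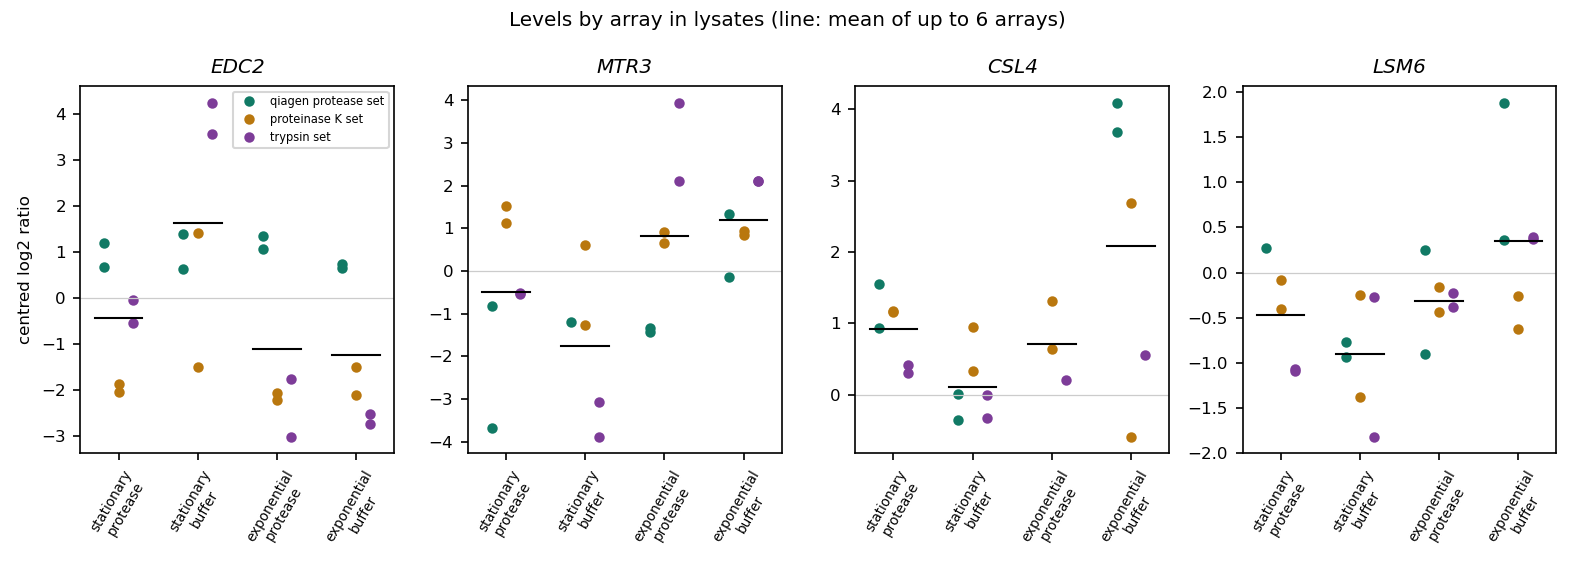
Level by array (centred log2 ratio) of EDC2, MTR3, CSL4 and LSM6 in lysates of stationary (left) and exponential (right) cells with protease and with buffer; points are arrays coloured by protease experiment and lines means of up to 6 arrays. Among the buffer arrays, the 2 stationary ones of the trypsin experiment are the highest for EDC2 and the lowest for MTR3.

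In the isolation set of 2 arrays a method, adding proteinase K raised 6 members and lowered 2. DHH1 was 0.56 and 0.59 with proteinase K, against -0.72 and -0.42 with the own isolation, higher by 1.15 ± 0.17 (adjusted p = 0.00559). RRP40, a cap protein of the exosome, was 1.09 and 1.80 against -0.14 and 0.08, NOT3, a CCR4-NOT subunit, 1.24 and 0.96 against -0.08 and -0.04, and SKI7, the link between Ski proteins and exosome, 0.84 and 1.00 against -0.22 and -0.14. NAM7 (1.05 ± 0.24) and LSM5 (1.02 ± 0.14) were higher as well. CDC39 was lower, at -0.78 and -0.39 against 1.03 and 0.21, as was NOT5, a further CCR4-NOT subunit, at -1.60 and -1.75 against -0.54 and -0.50. The calls of NOT3, NOT5 and SKI7 held without any 1 array, and those of RRP40, CDC39, NAM7, DHH1 and LSM5 did not, with lowest sizes of 1.12, -0.80, 0.77, 1.00 and 0.96. On the deposited scale NOT5 (-0.89) and CDC39 (-0.94) were under 2-fold.

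With hot phenol, PUF3, which binds mRNAs of mitochondrial proteins, was 1.34 and 1.04, against -0.15 and 0.05 with the own isolation, higher by 1.24 ± 0.18 (adjusted p = 0.0114). EDC1 was -0.01 and 0.35 against 0.86 and 1.48, lower by 1.00 ± 0.26 (0.0451). Both calls were lost without single arrays. NMD2 had 1 array at -7.16 and the other at 0.56, against 0.03 and 0.21, and was not called (-3.42 ± 2.38). XRN1, LSM1, PAT1 and DCP2 were not called with either method, with XRN1 at 0.83 ± 0.22 and LSM1 at -0.86 ± 0.24 with proteinase K.

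Other genes of mRNA turnover outside the 48, 35 in a list of decapping-related, CCR4-NOT, poly(A), nuclear decay and RNA-binding genes, gave 4 higher and 4 lower of 23 tested at 0.5 to 2 h of the hours course (12.9% and 10.2% of all genes), and 5 higher and 4 lower of 24 at 5 to 8 h (10.4% and 15.5%). MPT5, a Puf-family repressor, was the largest rise at 0.5 to 2 h (3.76 ± 0.73, adjusted p = 0.000448), with 4 T0 values of wide spread (SD 2.29), and SSD1, a translational repressor, the largest fall (-2.13 ± 0.27, 1.24e-06). DCS2, a regulator of cap scavenging, fell by 1.64 ± 0.48 (0.0109) at 0.5 to 2 h. CAF120, a CCR4-NOT subunit singled out after its values were seen, averaged 0.22 ± 0.27 at 0.5 to 2 h (SD, n = 8) and 0.18 ± 0.26 at 5 to 8 h (n = 13), against 1.47 ± 0.47 at T0 (n = 6), lower by 1.25 ± 0.21 (SE; limma, adjusted p = 6.23e-05) and 1.31 ± 0.19 (6.07e-06). At 5 to 8 h STM1, a ribosome-associated protein that preserves ribosomes in stationary phase, fell by 2.12 ± 0.15 (3.26e-11). In the upshift 1 of 21 rose and 2 fell at 30 to 120 min (6% and 2.83% of all genes), and 3 rose and 3 fell at 300 to 480 min (9.2% and 8.34%), with EBS1, a relative of a nonsense-mediated decay factor, up by 1.59 ± 0.33 and 2.29 ± 0.30. In stationary buffer lysates DCS2 was higher than in exponential ones by 4.29 ± 1.34 (0.0221) and STM1 lower by 2.58 ± 0.89 (0.0323), in 5 calls among 12 tested (36.9% of all genes). In the minutes course 5 of 25 rose and 3 fell (20.9% and 16.5% of all genes), and in the seconds course 0 of 30 were called at 10 to 60 s or 120 to 300 s (4 and 7 at an unadjusted p under 0.05; 0.181% and 2.35% of all genes).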

How the data were processed

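RNA was labelled with Cy5 and the common reference with Cy3 on spotted 70-mer arrays. The authors deposited log2 ratios for the seconds course, scaled on spiked-in control RNA per the labels, and linear Cy5 over Cy3 ratios after background subtraction for the other 194 arrays; whether these hold the control normalization is not given in the sources used here. Deposited ratios at or below 0 (0.157 to 37.9% of an array) and marker values were treated as missing, and the rest taken to log2, where the test had been planned for log2 values. Probes were joined to genes through platform annotation and R64 gene IDs, averaged per gene, and each array was centred on its median. Intensities were not used, so faint spots counted as much as bright ones. The number of arrays, the missing values and the spread between arrays limit the precision. Genes with values in at least 80% of the arrays of a fit, 80% of the times of a group and 2 arrays of each group were tested with limma 3.58.1 in R 4.3.3 on cell means, with Benjamini-Hochberg adjustment over all genes tested; this was tested on simulated data with 200 changed genes. Tables and plots were made with Python 3.11.15, NumPy 2.4.6, pandas 2.3.3 and Matplotlib 3.10.9.

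The members and lists were chosen with earlier results of these data known. All members may be named; values by array are given for DHH1, PAT1, DCP2, XRN1, LSM1 and up to 4 called members in each direction, and up to 2 called genes in each direction for the other turnover list. Members not tested were named after their values were seen. Successive times of a course were taken as independent. The study randomized samples within each time course as a block and the labels mark the second run, so runs were also fitted as a replicate block; deviations of same-numbered arrays correlated over 0.1 in 115 of 120 pairs of the hours course, 92 of 120 of the upshift, 621 of 630 of the minutes course, 1 of 7 of the lysates and 0 of 3 of the isolation set. Alternatives were the deposited scale, centring on complete genes, other limits on missing values, no minimum fold, only the arrays compared, arrays or runs left out and the replicate number as a block; leaving out arrays shared between sets was chosen after seeing the data. Sequences of the genes were not used here.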

Additional observations from a re-analysis of the deposited data

Results flagged for a closer look

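Among 208 groups of 4 to 10 arrays over 35 members, 12 held an array far from the others of its group (Dixon's ratio above its 95% value), where chance gives about 1 in 20 such groups. At T0, EDC2 had 1 array at 4.41 in the hours course, and SCD6 1 array at -2.03 in the minutes course. In the seconds course RRP6 had 1 array at 2.94 at 0 s, LSM6 1.43 and SKI2 1.63 at 20 s, DIS3 -0.94 and POP2 1.58 at 120 s, NAM7 1.15 at 130 s, EDC1 1.71 at 150 s and SCD6 -0.93 at 160 s. In stationary buffer lysates 1 array of the Qiagen protease experiment was far from the rest for RRP40 (-2.22) and for XRN1 (-1.43).

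The hours course and the upshift differed by limma's test of the difference itself (adjusted p under 0.05 and at least 2-fold) for 6 members at the early times, hours course minus upshift: DIS3 by 2.49, POP2 by 1.26, CAF40 by 1.19, CCR4 by 1.12, SCD6 by 1.05 and EDC2 by -2.03. At the late times 5 members differed, DIS3 by 1.95, SCD6 by 1.91, RRP6 by 1.53, LSM7 by 1.17 and EDC2 by -1.68. The shares of all genes called in the same comparisons were 38.1% and 36.3%.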

How the results depend on the processing

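None of the 60 calls of members changed direction under any alternative that could test it. Over all members tested, called or not, 157 of 586 differences changed sign on the deposited scale, 20 of them called there (15 at 120 to 300 s of the seconds course), and 324 of 8150 changed sign over the other settings, 0 of them called. On the deposited scale, without centring, the counts of members called were 15 at 0.5 to 2 h and 20 at 5 to 8 h of the hours course, 0 in the late upshift, 18 for the late hours course against the late upshift, 15 at 10 to 60 s and 38 at 120 to 300 s of the seconds course, 3 for rpb1-1 against parental, 16 for stationary against exponential lysates and 2 for protease against buffer in stationary lysates. Centred on genes with a value on every array they were 1 for the late against the early hours course, 4 in the late upshift, 10 for the late hours course against the upshift, 3 after menadione in the strain set and 3 for rpb1-1 against parental. With a value required on every array they were 2 and 1 in the early and late hours course, 0 and 0 in the early and late upshift, 1 and 1 for the hours course against the upshift, 2 in the minutes course, 0 in the strain set after menadione and 1 for stationary against exponential lysates, as fewer genes were tested. With values on at least 50% of arrays they were 8 in the late hours course, 1 for late against early, 10 for the late hours course against the upshift, 2 at 120 to 300 s and 2 for rpb1-1 against parental. With no minimum fold they were 12 in the late hours course, 7 for late against early, 2 and 5 in the early and late upshift, 2 for late against early upshift, 10 and 11 for the hours course against the upshift, 1 for the late minutes course, 2 at 120 to 300 s, 1 for rpb1-1 against parental, 6 for hot phenol and 18 for proteinase K.

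Fitted on only the arrays compared, the counts were 2 in the early upshift, 0 at 120 to 300 s, 1 for rpb1-1 against parental and 1 for hot phenol. Without arrays shared between sets they were 0 in the early upshift without its 30 min arrays, 0 at 120 to 300 s without the matching 0 s arrays, and 3 after menadione without S288c, and without the 2 min lysates protease against buffer gave 1 in stationary lysates. With the replicate block 8 of 53 calls of members were lost, those given beside the courses and RRP40 with proteinase K (1.48, adjusted p = 0.061), where numbers did not pair arrays. With the block the counts were 0 in the early upshift, 1 for late against early upshift (POP2), 1 for the late minutes course (LSM4) and 1 for protease against buffer in stationary lysates (EDC2); the strain set and seconds course gave no such fit, because single arrays follow each treatment. Without 1 array or run the counts ran from 4 to 6 and 4 to 9 in the early and late hours course (0 to 1 between them), 0 to 1 and 0 to 3 in the upshift (0 to 1 between them), 3 to 7 and 1 to 8 for the hours course against the upshift, 12 to 16 and 0 to 0 in the minutes course, 0 to 0 and 0 to 2 in the seconds course, 0 to 6, 0 to 3 and 1 to 2 in the strain set, 0 to 5, 0 to 1, 0 to 0 and 0 to 0 in the lysates, and 0 to 5 and 5 to 11 for hot phenol and proteinase K. Further calls lost included CDC36, LSM3 and EDC2 in the strain set with centring on genes with a value on every array (0.88, 0.98 and 1.07), and LSM3 at 120 to 300 s (adjusted p = 0.0982), CSL4 and LSM6 in lysates (0.0526 and 0.0508), and EDC1 with hot phenol and CDC39 with proteinase K (0.0822 and 0.0537) when fitted on only the arrays compared. Of single members' calls, 38 of 464 were lost over the alternatives and 97 of 417 over the fits without an array or run. Except where stated, the cause of a change was not tested. The counts of this section stand without the share of all genes called under the same setting. They describe the settings and are not results about the members.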
